A study of Homo sapiens with 6 samples.

Results

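Described here are 10 genes known as transcriptional targets of Wnt signalling in the intestinal crypt, chosen by symbol: AXIN2, LGR5, ASCL2, NKD1, RNF43, ZNRF3, SP5, TCF7, LEF1 and NOTUM. All 10 matched 1 row each of the 27134 genes in the expression table, and all 10 passed the filter on low values. RNA was sequenced from KM12, an established human colorectal cancer line, as 3 libraries of cells labelled as overexpressing CDO1 and 3 libraries of control cells labelled mock. CDO1 encodes cysteine dioxygenase, which oxidises cysteine to cysteine sulfinate. Cells of both groups were at passages 10 to 15, and the labels do not say which vector was used, whether cells were clones or pools, or whether replicate libraries stem from different cultures. The p-values therefore reflect variation among these 6 libraries, some of which may be technical.

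In the crypt, Wnt ligands bind Frizzled and LRP receptors and stop a cytoplasmic complex of AXIN, APC and kinases from destroying beta-catenin. Beta-catenin then enters the nucleus and switches on genes with TCF/LEF proteins. Many of the genes it switches on are brakes on the same pathway, so that AXIN2, NKD1, RNF43, ZNRF3 and NOTUM serve both as outputs and as negative feedback, while LGR5 and ASCL2 mark the stem cells of the crypt base.

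Reads assigned to genes totalled 17516640 to 22198173 per library. The normalised count of the CDO1 gene itself was 2484, 2336 and 2333 in the CDO1 libraries, against 68.1, 0 and 0 in mock replicates 1, 2 and 3. In limma its log2 fold change was 9.18 (adjusted p = 2.74e-07). With mock replicates 2 and 3 at 0, the size of this value depends on the 1 added before taking log2. The ratio of the group means was 105. The authors' deposited table gives this gene a log2 fold change of 0.089 with an adjusted p of 0.416. CDO1 kept its call in 15 of 16 alternatives to the main fit, with the deposited comparison the exception. Its log2 fold change ranged from 0.089 to 11.2 over these alternatives. Why the deposited value differs was not tested. Of 11 colorectal epithelium markers, CDX1 was near 0, with means of 4.44 in CDO1 and 4.20 in mock cells. KRT19 did not pass an adjusted p of 0.05 in limma (0.449). The 9 others were higher with CDO1 at that threshold, as were 11.3% of all genes tested. The summed normalised count of the 11 was 194292 to 208103 in CDO1 libraries and 144625 to 153158 in mock libraries. Most of this sum is KRT8, with means of 122713 in CDO1 and 86833 in mock cells. For fibroblasts, 2 of 6 markers were analysed, COL1A1 and PDGFRB, with a sum of 130 to 151 in CDO1 and 204 to 293 in mock libraries. COL1A1 was lower, with means of 103 in CDO1 and 225 in mock cells, whereas PDGFRB (39.5 and 35.2) overlapped between groups. The 3 endothelial markers summed to 41.3 to 72.3 in CDO1 and 26.3 to 35.0 in mock libraries. LYZ was the Paneth cell marker analysed, at 0 to 2.19 and 0.896 to 6.79 in CDO1 and mock libraries. T cell markers were not analysed here. The part of these markers in the results was not tested, and in bulk RNA fewer cells of a type and less RNA per cell cannot be told apart.

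Promoter sequences from RefSeq (GRCh38.p14) were at hand for 4 of the 10 genes: SP5, LEF1, TCF7 and RNF43, the last 2 with more than 1 start. The stretches searched were the 250 bases before each start, for the TCF/LEF motif written as CTTTG followed by AA, AT, TA or TT on either strand. Of 35116 promoters of that length, 12.0% held at least 1 match. Matches were found before the start of SP5 (3 matches) and before the inner start of TCF7 (1 match). Both stretches are shown because they hold the letters that TCF/LEF proteins are known to read. Capitals mark the matches. The first is chr2:170715087-170715336 (plus strand) and the second chr5:134123368-134123617 (plus strand), and neither overlaps an exon of its gene in GENCODE release 29.
SP5: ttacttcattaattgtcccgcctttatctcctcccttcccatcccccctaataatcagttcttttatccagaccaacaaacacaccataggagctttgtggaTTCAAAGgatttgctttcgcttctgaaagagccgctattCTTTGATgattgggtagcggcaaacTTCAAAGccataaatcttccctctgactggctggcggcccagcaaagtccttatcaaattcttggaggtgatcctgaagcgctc
TCF7 (inner start): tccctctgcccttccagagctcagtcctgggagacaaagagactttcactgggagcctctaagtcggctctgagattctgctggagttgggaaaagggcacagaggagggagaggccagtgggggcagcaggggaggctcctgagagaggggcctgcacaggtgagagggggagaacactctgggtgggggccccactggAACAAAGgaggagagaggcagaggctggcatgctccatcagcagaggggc
A match is a description of the letters and not a shown binding site. The levels of both genes are given below, and neither passed the threshold.

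With CDO1, LGR5, AXIN2 and ASCL2 rose and NOTUM fell. The other 6 genes, RNF43, ZNRF3, NKD1, TCF7, LEF1 and SP5, did not pass an adjusted p of 0.05 in limma. The same threshold called 24.0% of all 21775 genes tested, 11.3% higher and 12.7% lower, and 36.3% of the 10941 genes with a mean of at least 100, as all 10 genes had. A count of 4 of 10 is near that last share, so the number called is not a result about these genes. The median log2 fold change of the 10 genes was -0.047. It was -0.0035 over all genes tested and 0.0205 over those with a mean of at least 100. The groups of 3 did not overlap for the same 4 genes, 3 above and 1 below, against 37.1% of all genes tested (18.3% above and 18.9% below). In edgeR the same 4 passed, where 35.7% of genes did, and in the authors' deposited table they passed where 15.9% did.

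**Figure D1:**
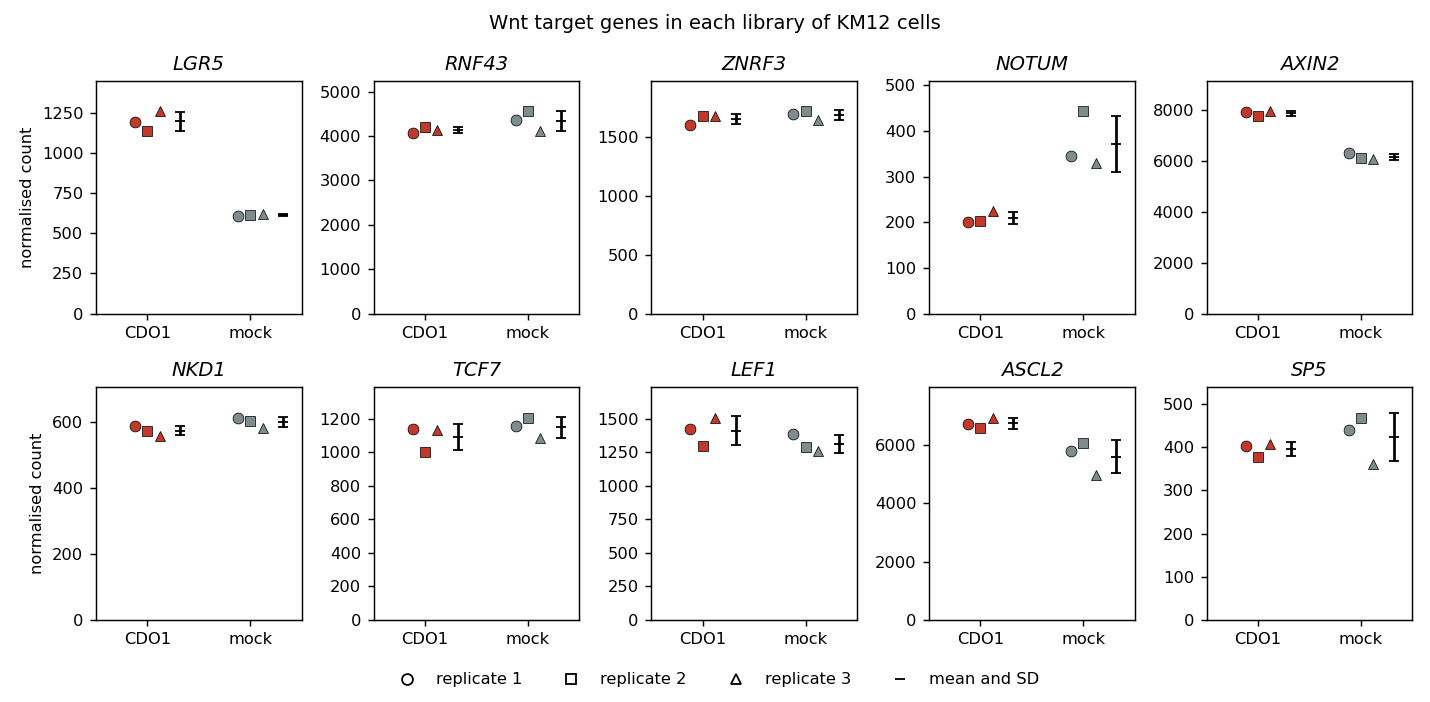
Normalised count of each Wnt target gene in every library, with CDO1 libraries (red) left of mock libraries (grey), shapes for replicates 1 to 3, and bars for the mean ± SD of 3 libraries. Each vertical axis starts at 0. LGR5 lies at 1136 to 1257 in CDO1 and 606 to 619 in mock libraries, and NOTUM at 200.2 to 225 in CDO1 and 330.3 to 443 in mock libraries. AXIN2 and ASCL2 also do not overlap between groups, whereas the other 6 genes do.

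LGR5 is a receptor for R-spondins, secreted proteins that strengthen Wnt signalling, and a marker of crypt stem cells (ENSG00000139292, GRCh38 chromosome 12, 71439770 to 71586310). Its normalised count was 1191, 1136 and 1257 in CDO1 replicates 1, 2 and 3, against 606, 612 and 619 in mock replicates 1, 2 and 3. Every CDO1 library was higher than every mock library, and the mock libraries lay within a narrow band. The mean was 1195 ± 60.5 with CDO1 and 612 ± 6.52 in mock (SD, n = 3 each), 1.95-fold higher. In limma the log2 fold change was 0.96 with an SE of 0.063 and a 95% interval of 0.83 to 1.09 (adjusted p = 4.91e-10). Of the 10941 genes with a mean of at least 100, 29 had a larger rise. TSPAN8, a gene for a tetraspanin on the opposite strand that overlaps the LGR5 locus, stood at 1795 ± 26.1 in CDO1 and 900 ± 54.2 in mock cells (SD, n = 3 each). The pair share 0 exon bases in GENCODE release 29.

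RNF43 and ZNRF3 encode ubiquitin ligases of the cell membrane that remove Frizzled receptors, and R-spondin bound to an LGR receptor takes them off the surface. RNF43 (ENSG00000108375, chromosome 17, 58352500 to 58417595) had 4058, 4202 and 4135 normalised counts in the CDO1 libraries, against 4358, 4555 and 4112 in the mock libraries. ZNRF3 (ENSG00000183579, chromosome 22, 28883592 to 29057487) had 1597, 1678 and 1674 in CDO1 libraries and 1696, 1715 and 1638 in mock libraries. For each gene the groups overlapped. The log2 fold change was -0.070 for RNF43, with a 95% interval of -0.18 to 0.038 (limma adjusted p = 0.373). For ZNRF3 it was -0.029, with a 95% interval of -0.14 to 0.085 (limma adjusted p = 0.764). Of its 7505 exon bases, RNF43 shares 4326 with ENSG00000285897, a protein-coding gene of the same strand that was not analysed here, so the counts of RNF43 are uncertain there. It also shares 143 with SUPT4H1 and 1521 with TSPOAP1-AS1 (1094 and 8.97 normalised counts in CDO1 cells, 1015 and 13.1 in mock cells). The strand setting of the counts was not given.

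NOTUM is a secreted carboxylesterase that takes the lipid off Wnt ligands and so disables them (ENSG00000185269, chromosome 17, 81952507 to 81961840). There were 200.2, 203 and 225 normalised counts in the CDO1 libraries, against 344, 443 and 330.3 in the mock libraries. All CDO1 libraries were lower than all mock libraries, and mock replicate 2 stood above the other mock libraries. The mean was 209 ± 13.7 with CDO1 and 372 ± 61.3 in mock (SD, n = 3 each), 1.78-fold lower. The log2 fold change was -0.82 with an SE of 0.11 and a 95% interval of -1.04 to -0.60 (limma adjusted p = 6.43e-06). It was -0.69 without mock replicate 2. Of the genes with a mean of at least 100, 418 had a larger fall.

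AXIN2 is a scaffold of the beta-catenin destruction complex and a widely used readout of Wnt signalling (ENSG00000168646, chromosome 17, 65528563 to 65561647). The libraries held 7891, 7750.0 and 7934 normalised counts with CDO1, against 6299, 6087 and 6050.1 in mock. The groups were well apart, and each group spanned a small range. The mean was 7858 ± 96.2 with CDO1 and 6145 ± 135 in mock (SD, n = 3 each), 1.28-fold higher. This is a log2 fold change of 0.35 with an SE of 0.048 and a 95% interval of 0.26 to 0.45 (limma adjusted p = 9.84e-06). Of the genes with a mean of at least 100, 764 had a larger rise. AXIN2 shares 1316 exon bases with ENSG00000266076, which had 2.02 normalised counts in CDO1 and 2.63 in mock cells.

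NKD1 binds Dishevelled and acts as a further feedback inhibitor (ENSG00000140807, chromosome 16, 50548330 to 50649249). It had 587, 574 and 558 normalised counts in the CDO1 libraries, against 613, 604 and 581 in the mock libraries. The ranges overlapped only in that the highest CDO1 library passed the lowest mock library. NKD1 had a log2 fold change of -0.065, with a 95% interval of -0.21 to 0.075 (limma adjusted p = 0.550). Among the feedback genes of the list, AXIN2 was thus higher, NOTUM lower, and NKD1, RNF43 and ZNRF3 did not pass.

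TCF7 and LEF1 encode DNA-binding partners of beta-catenin and are themselves Wnt targets. TCF7 (ENSG00000081059, chromosome 5, 134114711 to 134151865) had 1141, 999.5 and 1134 normalised counts in the CDO1 libraries, against 1156, 1208 and 1084 in the mock libraries. LEF1 (ENSG00000138795, chromosome 4, 108047545 to 108168956) had 1427, 1299.5 and 1509 in CDO1 libraries and 1389, 1287 and 1256 in mock libraries. CDO1 replicate 2 was the lowest of its group for both genes. Their log2 fold changes were -0.076, with a 95% interval of -0.21 to 0.063 (limma adjusted p = 0.468), for TCF7 and 0.11, with a 95% interval of -0.029 to 0.24 (limma adjusted p = 0.271), for LEF1. TCF7 shares 210 exon bases with SKP1 on the opposite strand, and SKP1 had 2153 ± 71.1 normalised counts in CDO1 and 1952 ± 204 in mock cells (SD, n = 3 each). LEF1 shares 279 with its antisense gene LEF1-AS1, which stood at 2.67 in CDO1 and 2.93 in mock cells.

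ASCL2 is a basic helix-loop-helix transcription factor of crypt stem cells (ENSG00000183734, chromosome 11, 2268495 to 2270952). CDO1 libraries had 6739.8, 6572 and 6949 normalised counts, and mock libraries 5788, 6058 and 4977. The groups did not overlap, but the mock libraries spread more widely than the CDO1 libraries. The mean was 6754 ± 189 with CDO1 and 5607 ± 563 in mock (SD, n = 3 each), 1.20-fold higher. This is a log2 fold change of 0.27 with an SE of 0.062 and a 95% interval of 0.14 to 0.40 (limma adjusted p = 0.00245).

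SP5, a zinc finger factor of the SP family and the gene whose promoter with 3 matches is printed above (ENSG00000204335, chromosome 2, 170715351 to 170718078), did not pass. It had 403, 378 and 409 normalised counts in the CDO1 libraries, against 439, 469 and 362 in the mock libraries. Mock replicate 3 lay below every CDO1 library, and mock replicates 1 and 2 lay above every one. SP5 had a log2 fold change of -0.087, with a 95% interval of -0.28 to 0.10 (limma adjusted p = 0.555).

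**Figure D2:**
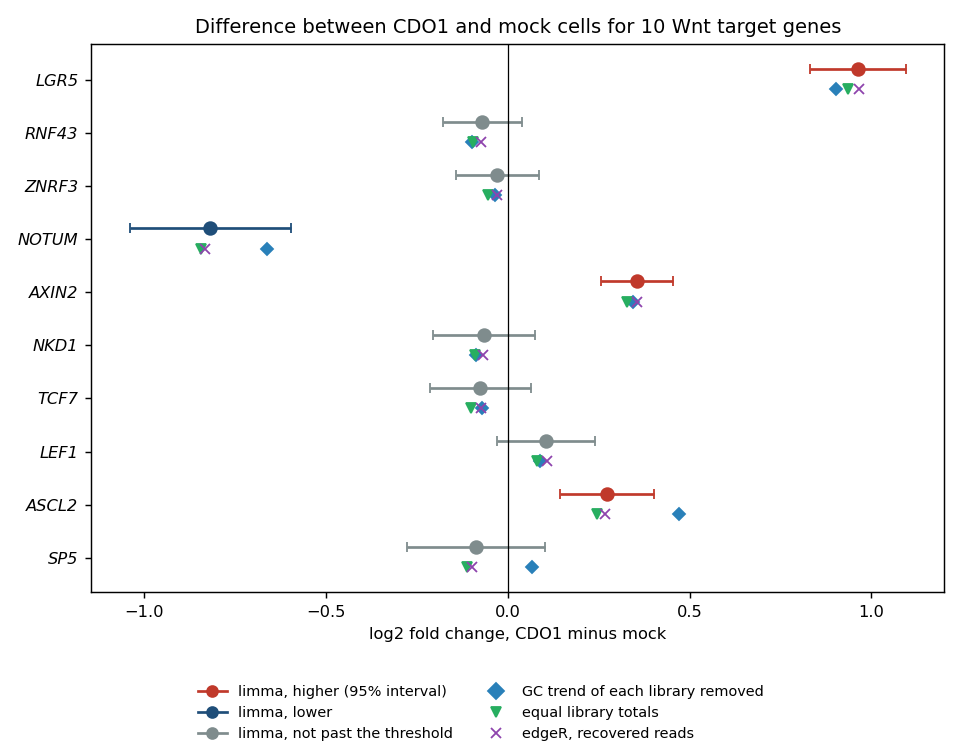
Difference between CDO1 and mock cells (log2 fold change) of each gene in limma with its 95% interval (circles and bars; red higher, blue lower, grey not past an adjusted p of 0.05). Smaller symbols show the value with each library's GC trend removed, with equal library totals and in edgeR on the recovered reads. LGR5 lies at 0.96, AXIN2 at 0.35, ASCL2 at 0.27 and NOTUM at -0.82, and the intervals of the other 6 genes include 0.

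The 3 genes with the widest mock spread, relative to the mean, were the most GC-rich of the 10. NOTUM, SP5 and ASCL2 had coefficients of variation of 16.5%, 13.0% and 10.0% in mock libraries. The GC content of their longest transcripts is 66.5%, 66.2% and 69.2%, and that of LGR5 is the lowest of the 10, at 43.8%. The normalised count in mock replicate 2 was 1.22, 1.34 and 1.30 times that in mock replicate 3 for ASCL2, NOTUM and SP5, and 0.988 times for LGR5. Over 10926 genes, Spearman's rho was taken between GC content and the deviation from the mean of all libraries. It was 0.204, 0.523 and -0.237 in mock replicates 1, 2 and 3. In CDO1 replicates 1, 2 and 3 it was -0.336, 0.0027 and -0.275. The trend thus differed within mock and also leaned with the groups, whose ranges overlapped. After removal of the GC trend from every library, the log2 fold change was 0.47 for ASCL2 (limma adjusted p = 7.14e-09), -0.66 for NOTUM (1.38e-06) and 0.066 for SP5 (0.541). ASCL2 thus rose by more with the trend removed, NOTUM fell by less, and SP5, which did not pass in either case, changed sign. LGR5 was at 0.90 and AXIN2 at 0.34 in that fit. Whether base composition accounts for the spread, or for part of the differences between groups, was not tested.

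**Figure D3:**
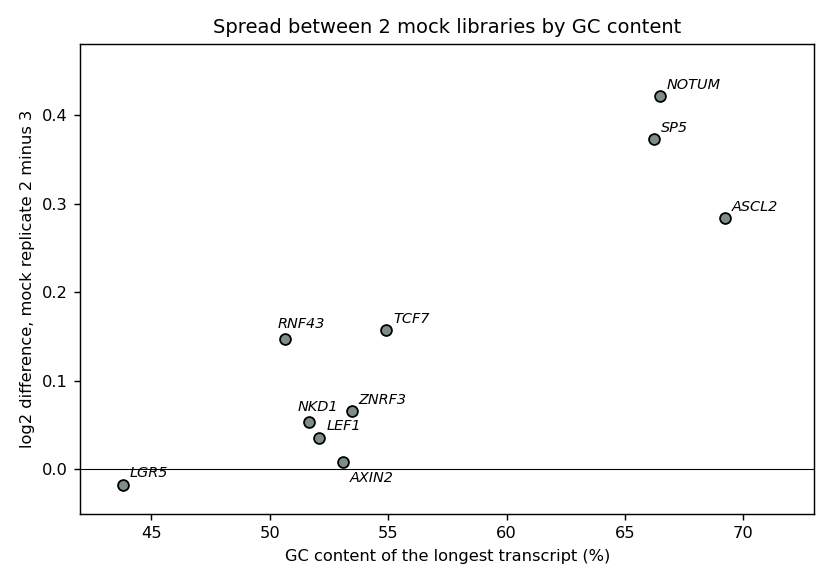
Log2 difference between mock replicates 2 and 3 against the GC content of the longest transcript (percent), 1 point for each of the 10 genes. ASCL2, NOTUM and SP5, at 66.2% to 69.2% GC, differ by 0.28, 0.42 and 0.37, while LGR5, at 43.8%, lies at -0.017.

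Levels of different genes were compared per exon length, as TPM (length-scaled abundance) from the recovered reads. In CDO1 cells ASCL2 was the highest of the 10 at 704 ± 20.6 TPM, followed by AXIN2 at 290 ± 4.46 and RNF43 at 106 ± 1.36 (SD, n = 3 each). LEF1 at 50.8 ± 3.89, ZNRF3 at 45.7 ± 1.05 and LGR5 at 43.9 ± 2.27 TPM came next, and the ranges of mean ± SD overlapped between ZNRF3 and LGR5 but not between LEF1 and ZNRF3. Below these were SP5 at 37.1 ± 1.66, TCF7 at 20.9 ± 1.60, NOTUM at 13.4 ± 0.857 and NKD1 at 6.34 ± 0.179 TPM. In mock cells the order began in the same way, with ASCL2 at 593 ± 58.1, AXIN2 at 230.2 ± 5.13, RNF43 at 113 ± 5.49, LEF1 at 47.9 ± 2.55 and ZNRF3 at 47.3 ± 1.01 TPM (SD, n = 3 each). There SP5 (40.2 ± 5.16) came sixth, and NOTUM (24.1 ± 3.91), LGR5 (22.8 ± 0.272) and TCF7 (22.4 ± 1.16) had overlapping ranges of mean ± SD, as did LEF1 and ZNRF3. NKD1 was lowest at 6.73 ± 0.174 TPM. LGR5 therefore ranked 6 of 10 in CDO1 and 8 of 10 in mock cells, and NOTUM 9 and 7. With the longest transcript as the length, LGR5 (35.4 TPM) stood above ZNRF3 (32.8 TPM) in CDO1 cells and TCF7 (27.9 TPM) above SP5 (26.6 TPM). In mock cells TCF7 (29.9 TPM) then stood above SP5 (28.9 TPM), NOTUM (22.2 TPM) and LGR5 (18.4 TPM). LEF1 (52.3 TPM) and ZNRF3 (34.1 TPM) were then further apart in mock cells. These neighbours thus have no firm order, and the ranks of LGR5 and NOTUM depend on the length used.

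Paralogs of the 10 genes were set beside them on the same scale. Of the R-spondin receptors, LGR4 also rose (474 ± 6.51 normalised counts in CDO1 and 339 ± 20.5 in mock cells, SD, n = 3 each; log2 fold change 0.48, limma adjusted p = 7.97e-05), and LGR6 did not pass (76.5 ± 13.5 and 74.4 ± 8.11). LGR5 made up 69.8% to 72.2% of the summed TPM of the 3 receptors in CDO1 libraries and 60.9% to 64.6% in mock libraries, and the sum was 61.6 ± 2.17 and 36.5 ± 0.768 TPM. Among the TCF/LEF factors, TCF7L2 fell (1659 ± 37.7 and 2264 ± 71.3 normalised counts in CDO1 and mock cells; log2 fold change -0.45, limma adjusted p = 2.25e-06) and TCF7L1 fell (143 ± 0.664 and 333 ± 23.0; -1.22). LEF1 was 39.0% to 41.5% of the summed TPM of the 4 factors in CDO1 libraries and 30.9% to 32.9% in mock libraries, and TCF7L2 36.8% to 39.8% and 42.3% to 45.2%. Their sum was 125 ± 5.69 TPM in CDO1 and 151 ± 3.15 TPM in mock cells (SD, n = 3 each). The share of LEF1 was thus higher in CDO1 libraries although its own level did not pass the test. RNF43 made up 69.6% to 70.2% of the RNF43 and ZNRF3 sum in CDO1 libraries and 70.0% to 71.2% in mock libraries, which overlap.

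**Figure D4:**
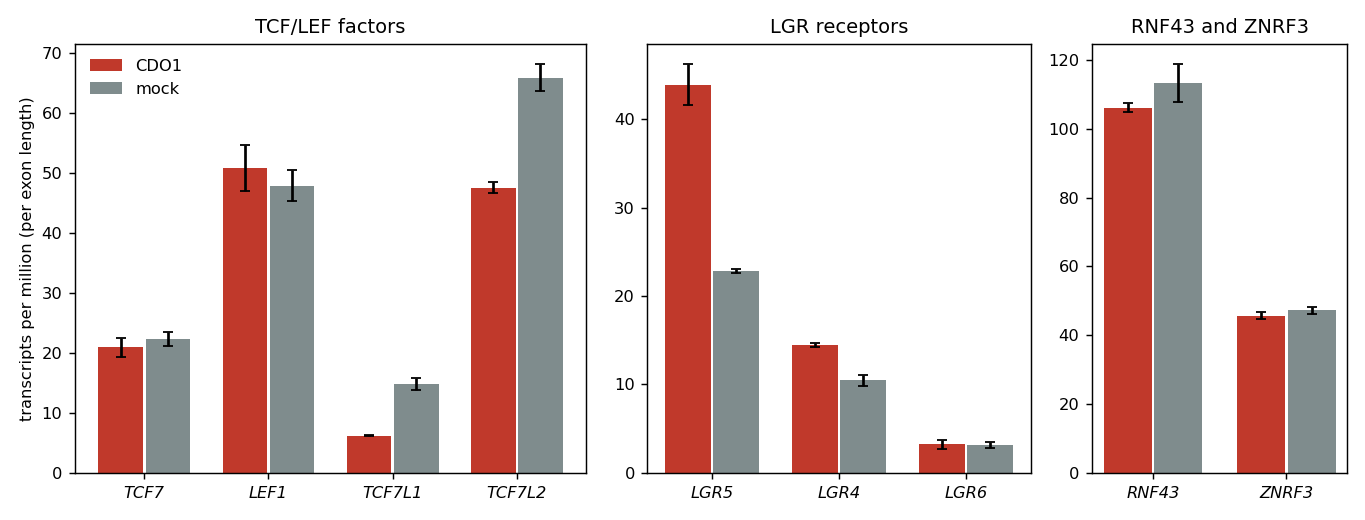
Mean level per exon length (TPM; bars show SD, n = 3 libraries) of the TCF/LEF factors, the LGR receptors and the RNF43 and ZNRF3 ligases, with CDO1 (red) left of mock (grey). LGR5 stands at 43.9 in CDO1 and 22.8 in mock cells, TCF7L1 at 6.23 and 14.8, TCF7L2 at 47.5 and 65.8, and LEF1 at 50.8 and 47.9.

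A ratio of 2 genes within a library does not depend on how libraries were scaled as a whole, but a GC trend of the library does not cancel in it. These pairs were chosen after their values were seen and carry no test. There were 0.151, 0.147 and 0.158 normalised counts of LGR5 for each of AXIN2 in the CDO1 libraries, against 0.0962, 0.100 and 0.102 in the mock libraries. For each count of NOTUM there were 5.95, 5.61 and 5.59 of LGR5 in CDO1 libraries and 1.76, 1.38 and 1.87 in mock libraries. Relative to the ligase RNF43, LGR5 stood at 0.294, 0.270 and 0.304 in CDO1 libraries and 0.139, 0.134 and 0.150 in mock libraries. For each of TCF7 there were 1.25, 1.30 and 1.33 normalised counts of LEF1 in CDO1 libraries, against 1.20, 1.07 and 1.16 in mock libraries. In none of these 4 pairs did the groups overlap, but the share of all gene pairs that do not overlap was not computed. LGR5 did not overlap between groups on its own, so its ratios are no separate evidence. LEF1 and TCF7 did not pass the threshold on their own.

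In other genes of the pathway, grouped by role, 63 genes were tested, of which 12 were higher, 16 lower and 35 did not pass (44.4% called, against 24.0% of all genes tested and 36.3% of those with a mean of at least 100). The number higher was 7 without CDO1 replicate 3 and also 7 without mock replicate 3. The share called is also given for each role, to be read against the same background. Each list is short, so these counts are not a result about a role. Of 15 Wnt and R-spondin receptors and R-spondins, 3 rose, 6 fell and 6 did not pass (60% called). Their median log2 fold change was -0.18. The receptors FZD1, FZD6, FZD4 and FZD3 fell by 0.89, 0.63, 0.58 and 0.56 in log2 units. FZD7 rose by 0.26, the co-receptor LRP6 by 0.23 and LGR4 by 0.48, and FZD7 did not pass without CDO1 replicate 3 (limma adjusted p = 0.0525). The ligands RSPO1 and RSPO4 also fell, at 3.27 ± 0.945 and 6.16 ± 2.63 normalised counts in CDO1 against 11.7 ± 5.45 and 15.6 ± 2.74 in mock cells (SD, n = 3 each). Both are scarce, and they lost the threshold in 4 of 13 and 6 of 16 alternatives.

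Of 8 secreted or surface inhibitors, 2 rose, 2 fell and 4 did not pass (50% called), with a median of -0.0034. DKK1, which blocks LRP receptors, had 376 ± 16.9 normalised counts in CDO1 and 1064 ± 8.02 in mock cells (SD, n = 3 each), a log2 fold change of -1.50 (limma adjusted p = 2.86e-12). The membrane inhibitor APCDD1 fell by 1.06 on the log2 scale, KREMEN1, a DKK receptor, rose by 0.36, and DKK3 rose by 1.21 from a low level (12.4 ± 4.26 and 4.60 ± 0.741 in CDO1 and mock cells).

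Among 13 cytoplasmic genes, AXIN1 rose, 3 fell and 9 did not pass (30.8% called), with a median of -0.11. APC2 fell by 0.57 on the log2 scale, the Dishevelled gene DVL2 by 0.25 and BTRC, which marks beta-catenin for destruction, by 0.22, while AXIN1 was higher by 0.20. Among 12 nuclear genes, 2 rose, 3 fell and 7 did not pass (41.7% called), with a median of -0.073. Besides TCF7L1 and TCF7L2, the corepressor TLE2 fell by 1.04 on the log2 scale, and its paralogs TLE4 and TLE1 rose by 0.56 and 0.17. CTNNB1, which encodes beta-catenin, had 9939 ± 266 normalised counts in CDO1 and 9852 ± 334 in mock cells (SD, n = 3 each), with a log2 fold change of 0.013 (limma adjusted p = 0.892).

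Of 15 further genes described as Wnt targets in colorectal cells, 4 rose, 2 fell and 9 did not pass (40% called). Their median was 0.12. SLC12A2, an ion cotransporter of the crypt, rose by 0.43 on the log2 scale, NKD2, the paralog of NKD1, by 0.25, CDCA7 by 0.22 and BAMBI, a decoy receptor of TGF-beta signalling, by 0.17. CD44, a hyaluronan receptor, fell by 0.88 and LRIG1, a brake on EGFR-family receptors, by 1.21. MYC (5451 ± 44.8 and 6010 ± 314 normalised counts in CDO1 and mock cells) and CCND1 (17187 ± 632 and 15820 ± 604) did not pass, with limma adjusted p-values of 0.0537 and 0.100. AXIN1, TLE1 and DKK3 lost the threshold in 10 of 16, 10 of 16 and 7 of 13 alternatives, BTRC in 7 of 16, DVL2 in 2 of 16, and NKD2 and BAMBI in 5 of 16 each.

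**Figure D5:**
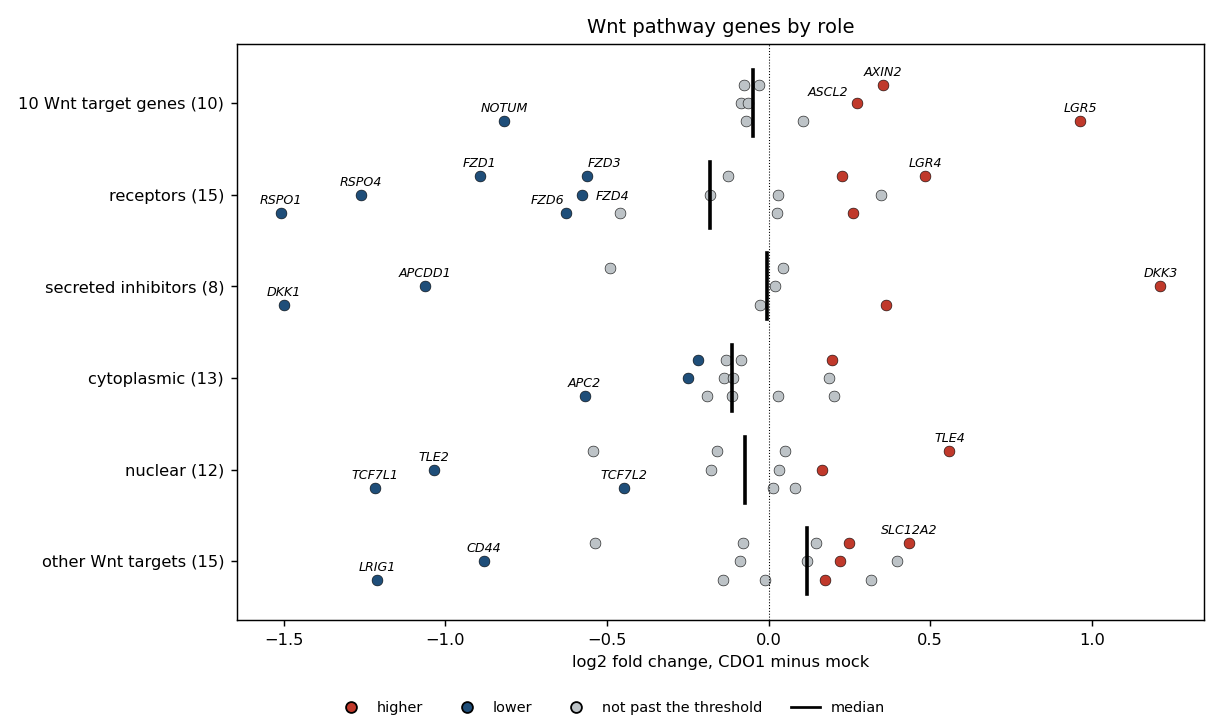
Log2 fold change (CDO1 minus mock) of the 10 Wnt target genes and of 63 other pathway genes by role, with the number tested in parentheses. Colour gives the limma call at an adjusted p of 0.05 (red for higher, blue for lower, grey for neither), and a black bar marks each median. Medians lie between -0.18 for receptors and 0.12 for other Wnt targets, and each group holds genes on both sides of 0.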

How the data were processed

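The authors aligned reads with STAR 2.5.1b and used DESeq2 1.10.1, build GRCh38, according to the submitters' processing notes. Read counter, annotation and strand setting were not given in the sources used here. Deposited signal columns are gene counts divided by a size factor per library, as read from the values: 100% of values were whole reads within 0.001 of a read (size factors 0.884 to 1.12). The log2 fold change and the p-value columns are the authors' deposited comparison, per the file headers.

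Normalised counts plus 1 were put on a log2 scale, which understates changes of low genes, and tested with limma 3.58.1 (trend option), keeping genes averaging 1 or more, with Benjamini-Hochberg adjustment over all genes tested (R 4.3.3). edgeR 4.0.16, which called 5423 genes, and DESeq2 1.42.0 were run on the recovered reads as alternatives. The fits were tested on simulated data. Fold values are ratios of mean normalised counts, and intervals come from limma.

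Names came from a reference table (26577 of 27134 identifiers), and coordinates, exon lengths and GC content from GENCODE release 29, whose release may differ from the authors'. The members and lists were chosen with earlier results of these data known. Genes named are the 10 members, up to 8 called genes of each pathway list by smallest p, the 3 genes most like each member, CDO1 and markers. RSPO4 (the ninth receptor gene called), MYC, CCND1, CTNNB1, LGR6 and overlapping genes were added after their values were seen. Protein sequences were not used here.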

Additional observations from a re-analysis of the deposited data

How the results depend on the processing

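LGR5, AXIN2 and ASCL2 stayed higher and NOTUM lower, past the threshold, under each of 16 alternatives: other filters and pseudocounts, edgeR, DESeq2, totals set equal, the GC trend of each library removed, the replicate block, each library left out, and the authors' deposited comparison. Their log2 fold changes ranged over these from 0.90 to 1.00 for LGR5, 0.33 to 0.37 for AXIN2, 0.19 to 0.47 for ASCL2 and -0.90 to -0.66 for NOTUM, with highest adjusted p-values of 1.17e-07, 0.000346, 0.0248 and 0.000293. The other 6 genes passed in none of the 16, with RNF43 nearest at 0.0644 with the GC trend removed. Only SP5 changed sign, with a log2 fold change of 0.066 with the GC trend of each library removed; the cause was not tested. With 1 library left out, pathway genes called higher ranged from 7 (without CDO1 replicate 3 or mock replicate 3) to 12 (without mock replicate 2), against 12 with all 6 libraries, and under the other alternatives from 9 to 15. Over all genes, the fit with equal library totals called 2069 higher and 3079 lower, against 2467 and 2762.

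The replicate numbers were not taken as pairs in the main fit. Deviations of same-numbered libraries correlated at 0.0777, 0.299 and 0.0862 for replicates 1, 2 and 3. Differently numbered libraries correlated between -0.238 and 0.189. CDO1 replicate 1 correlated best with mock replicate 3 (0.189), but CDO1 replicates 2 and 3 did so with the mock library of the same number. Replicate 2 also had the highest rho with GC content of its group, in both CDO1 (0.0027) and mock (0.523). Whether the GC trend gives part of these correlations was not tested. The correlations do not settle whether the libraries are paired. With the replicate number as a block, 5918 genes were called, against 5229, with 15 pathway genes higher and 20 lower. The block value was 0.96 for LGR5, 0.35 for AXIN2, 0.27 for ASCL2 and -0.82 for NOTUM, and no call among the 10 genes changed. The lowest of these genes, NOTUM, rests on 185 to 454 reads per library, so depth does not bring any of the 10 near a count of 0.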

Other observations

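Among 10550 protein-coding genes with a mean of at least 100, those whose values over the 6 libraries were most like each called gene were picked by Pearson's r of the log2 values. For LGR5 these were ACOT2 (0.999), NNT (0.998) and RBMS2 (0.998), for AXIN2 HENMT1, DDX3Y and TOMM34 (0.999 each), for ASCL2 PLEKHA8 (0.998), NSMF (0.997) and MFGE8 (0.996), and for NOTUM TMEM98 (0.999), TICAM1 (0.997) and MAPK8IP1 (0.997). These correlations are over the same 6 libraries and carry the difference between the groups, whatever its size. TOMM34, PLEKHA8 and MFGE8 did not pass in limma (adjusted p = 0.108, 0.340 and 0.0699), whereas the others listed for called genes passed. An r above 0.95 was reached by 866 genes with LGR5, 792 with AXIN2, 546 with NOTUM and 92 with ASCL2. For the genes that did not pass, the most alike were FAM193B, IDUA and ICAM5 for NKD1, SPATA2L, ITGB4 and ZNF646 for RNF43, and SLC35C1, TACC3 and VPS16 for ZNRF3. They were RNF220, ATG4D and INTS15 for SP5, TAF4, RANBP9 and MSL2 for TCF7, and TMEM181, ACOT8 and CREM for LEF1, with r between 0.968 and 0.997 in these 6 lists.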
